A study of Homo sapiens with 17 samples.

Results

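BRG1, the product of SMARCA4, is the ATPase that drives the SWI/SNF chromatin remodelling complexes, and its genome occupancy was compared between thyroid cells given T3 and cells given vehicle. The members were all listed BRG1 regions on chromosomes 1 to 22 and X, 55931 with T3 and 64289 with vehicle, together 120220 of the 266724 regions in the 8 lists of the study. Where 1 bp or more of a region was also covered in the other condition's list, the region was called shared, and otherwise T3-only or vehicle-only. The cells were Nthy-ORI, thyroid follicular epithelium of normal human origin immortalised with a viral large T antigen. The first group had received 10 nM T3 (triiodothyronine, the active thyroid hormone), and the second the vehicle, NaOH. Both groups had been kept beforehand for a day in hormone-stripped medium without phenol red, and both carry the label 6 hours, although the protocol text also names a longer exposure. Each group had 2 CUT&RUN libraries from nuclei of 500000 cells, and each pair of libraries gave 1 list of peaks found in both. Nothing in the labels says that the libraries came from separate cultures.

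SWI/SNF complexes use ATP to slide or evict nucleosomes, and thereby change which DNA is open to transcription factors. BRG1 is found in the BAF form, which carries ARID1A, and in the PBAF form, which carries PBRM1. Thyroid hormone receptors are nuclear receptors that sit on DNA with or without hormone, exchange corepressors for coactivators when T3 binds, and can recruit remodelling complexes. CUT&RUN maps a protein by tethering a nuclease to it through an antibody, so that DNA near the protein is cut out and sequenced. A listed region is therefore a stretch with enriched cleavage, and a region missing from a list may hold BRG1 below the level at which a peak was listed.

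Annotated start sites lying inside regions found in 1 condition give examples of the promoters that each class reached. The windows below run from 250 bases before to 50 bases after a start site. They come from RefSeq (GRCh38.p14) and are in the direction of the gene. They belong to the 3 highest T3-only and the 3 highest vehicle-only regions, by the value of the weaker library, that held a whole window of a protein-coding gene in the RefSeq table. Capitals mark CpG dinucleotides. The first 3 lie in T3-only regions: EDN1 (endothelin-1, a vasoactive peptide) at chr6:12290111-12290410 on the plus strand, SNRPC (a protein of the U1 splicing particle) at chr6:34757255-34757554 on the plus strand, and MYL11 (a muscle myosin light chain) at chr16:30372044-30372343 on the plus strand. The others lie in vehicle-only regions: HRH1 (the histamine H1 receptor) at chr3:11154243-11154542 on the plus strand, ACHE (acetylcholinesterase) at chr7:100895839-100896138 on the minus strand, and CNP (a phosphodiesterase of myelin) at chr17:41966545-41966844 on the plus strand.
EDN1: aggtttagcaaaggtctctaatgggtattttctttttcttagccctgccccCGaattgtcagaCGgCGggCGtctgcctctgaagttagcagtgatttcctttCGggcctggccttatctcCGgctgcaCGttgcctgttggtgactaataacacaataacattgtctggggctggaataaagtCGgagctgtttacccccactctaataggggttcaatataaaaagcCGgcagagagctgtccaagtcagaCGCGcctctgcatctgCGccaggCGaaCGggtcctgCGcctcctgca
SNRPC: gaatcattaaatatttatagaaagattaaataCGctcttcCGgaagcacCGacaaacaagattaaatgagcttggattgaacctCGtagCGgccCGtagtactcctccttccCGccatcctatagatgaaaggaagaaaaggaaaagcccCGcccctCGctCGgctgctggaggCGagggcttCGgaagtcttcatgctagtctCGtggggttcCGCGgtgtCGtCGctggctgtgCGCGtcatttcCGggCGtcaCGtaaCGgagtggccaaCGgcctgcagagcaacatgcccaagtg
MYL11: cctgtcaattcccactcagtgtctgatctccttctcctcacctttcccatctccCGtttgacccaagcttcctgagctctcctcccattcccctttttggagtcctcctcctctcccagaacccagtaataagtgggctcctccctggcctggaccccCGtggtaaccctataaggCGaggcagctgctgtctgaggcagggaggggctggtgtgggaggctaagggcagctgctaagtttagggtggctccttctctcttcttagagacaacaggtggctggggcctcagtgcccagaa
HRH1: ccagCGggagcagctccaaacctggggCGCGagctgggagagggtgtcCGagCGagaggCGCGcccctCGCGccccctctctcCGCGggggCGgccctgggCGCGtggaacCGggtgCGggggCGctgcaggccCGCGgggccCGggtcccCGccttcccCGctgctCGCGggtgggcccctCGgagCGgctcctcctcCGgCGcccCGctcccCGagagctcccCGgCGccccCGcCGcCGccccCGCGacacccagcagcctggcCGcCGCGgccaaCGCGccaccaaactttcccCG
ACHE: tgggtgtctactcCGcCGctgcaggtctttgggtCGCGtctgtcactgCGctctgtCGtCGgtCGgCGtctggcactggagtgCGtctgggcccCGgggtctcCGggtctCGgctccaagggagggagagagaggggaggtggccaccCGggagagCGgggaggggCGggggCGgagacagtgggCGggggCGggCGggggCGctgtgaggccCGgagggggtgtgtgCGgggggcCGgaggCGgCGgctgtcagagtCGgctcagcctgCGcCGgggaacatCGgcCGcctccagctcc
CNP: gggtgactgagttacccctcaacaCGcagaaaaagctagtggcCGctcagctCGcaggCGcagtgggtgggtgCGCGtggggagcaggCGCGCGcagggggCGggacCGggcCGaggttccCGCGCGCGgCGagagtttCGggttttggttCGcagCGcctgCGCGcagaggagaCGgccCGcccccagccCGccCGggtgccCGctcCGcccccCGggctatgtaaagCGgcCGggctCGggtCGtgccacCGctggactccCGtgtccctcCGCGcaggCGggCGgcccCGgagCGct
The T3-only windows of EDN1, SNRPC and MYL11 held 15, 24 and 3 CpG dinucleotides, against 43, 31 and 41 in the vehicle-only windows of HRH1, ACHE and CNP. EDN1 and ACHE each had a further annotated start in the same region, whose windows held 8 and 24. These windows are examples and do not stand for their classes. The median was 18 over all 455 T3-only windows and 23 over all 1373 vehicle-only windows. The letters TATAAA, those of the TATA box, were found on either strand in the windows of EDN1 and SNRPC and GGAATG in that of MYL11, whereas none of the 5 motifs searched was found in the windows of HRH1, ACHE and CNP.

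The T3 list was 0.870 times as long as the vehicle list. T3-only regions numbered 13009, or 23.3% of the T3 list (exact 95% interval 22.9 to 23.6). Vehicle-only regions numbered 18816, or 29.3% of the vehicle list (28.9 to 29.6). These intervals, like those of all shares below, are Clopper-Pearson intervals and cover counting error across regions, which are not replicates. The classes come from 1 list for each condition, and no test of them across libraries was run. With the vehicle list held to the 55931 regions of highest signal value, 26.3% of T3 regions were T3-only and 24.2% of vehicle regions were vehicle-only. This alternative takes the weakest regions out of the vehicle list alone. The T3-only share could therefore only rise, and vehicle-only regions could be lost but not added. What part list length had in the order of the shares was not tested. Read depth is unknown from the lists, so its part in their lengths was not tested. Regions of other chromosomes, 70 in the T3 list and 104 in the vehicle list, were left out.

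Regions found in 1 condition had lower median values than shared regions in both lists. The authors' signal value ranks peaks within a list, and the deposited values of the 2 libraries add up to it. T3-only regions had median values of 4.62 and 3.86 in the first and second library column, against 7.08 and 5.84 for the regions of the T3 list that were shared. Vehicle-only regions had medians of 5.26 and 3.96, against 8.19 and 6.28 for the shared regions of the vehicle list. Each list was cut by signal value into 10 bins of equal size, numbered from low to high. In bin 1 of the T3 list 55.2% of regions were T3-only, and in bin 10 0.197%, or 11 regions. In the vehicle list 64.4% of bin 1 and 0.249% of bin 10, or 16 regions, were vehicle-only. The share fell at each step from bin 1 to bin 10 in both lists. At a stricter irreproducible discovery rate (IDR, a measure of how poorly 2 libraries rank a peak alike) of at most 0.01 stood 35.8% of T3-only and 42.0% of vehicle-only regions, against 79.4% and 82.3% of the shared regions of the T3 and vehicle lists.

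**Figure D1:**
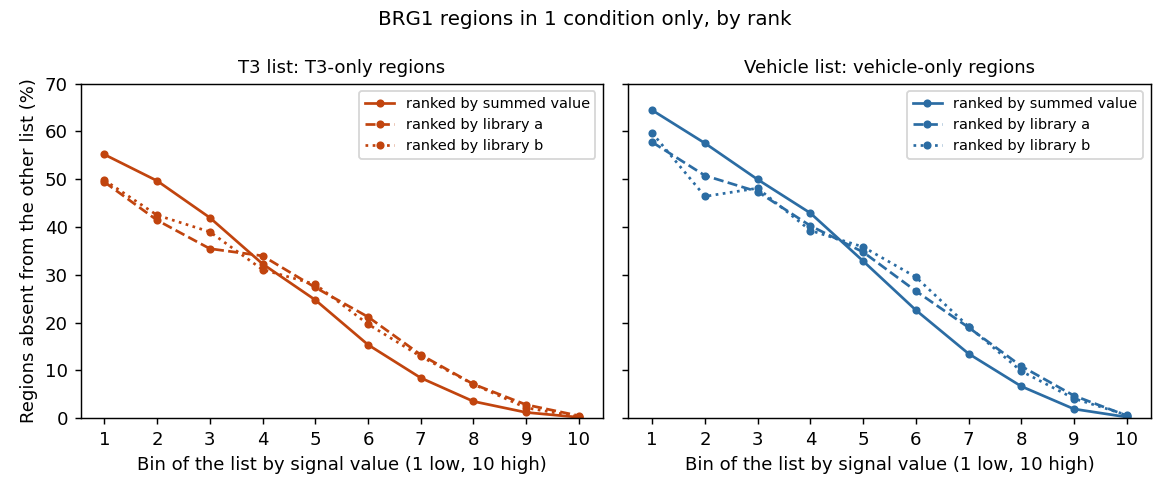
Share of BRG1 regions absent from the other list (vertical axis, %) in 10 bins of the list from low to high signal value (horizontal axis), for the T3 list (left) and the vehicle list (right); lines show ranking by the summed value and by the value of each library. The shares by summed value end at 0.197% of bin 10 of the T3 list and 0.249% of bin 10 of the vehicle list.

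Regions in 1 condition were about as narrow in T3 as in vehicle, and narrower than shared ones. The median width was 526 bp for T3-only regions (quartiles 382 and 705) and 501 bp for vehicle-only regions, against 1010 bp for shared regions of the T3 list and 960 bp for shared regions of the vehicle list. Only 8 T3-only and 9 vehicle-only regions were 2000 bp or wider, compared with 16.8% and 14.5% of the shared regions of the T3 and vehicle lists. Under 500 bp lay 45.7% of T3-only and 49.7% of vehicle-only regions. A wider region can more easily touch a region of the other list. The overlap rule itself thus favours wide regions among the shared ones. In the lower signal bins the medians lay closer, at 377 bp for T3-only and 444 bp for shared regions in bin 1 of the T3 list. In bin 5 they were 675 and 766 bp, and in bin 10 2020 and 2804 bp. In bin 5 of the vehicle list they were 626 bp for vehicle-only and 686 bp for shared regions. The interval of a listed region spans its peaks in both libraries, and within single libraries the medians were 400 and 449 bp for T3-only regions, against 396 and 421 bp for vehicle-only regions. T3-only regions covered 7.40 Mb and vehicle-only regions 10.3 Mb, beside 56.5 and 55.5 Mb covered by the shared regions of the T3 and vehicle lists.

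**Figure D2:**
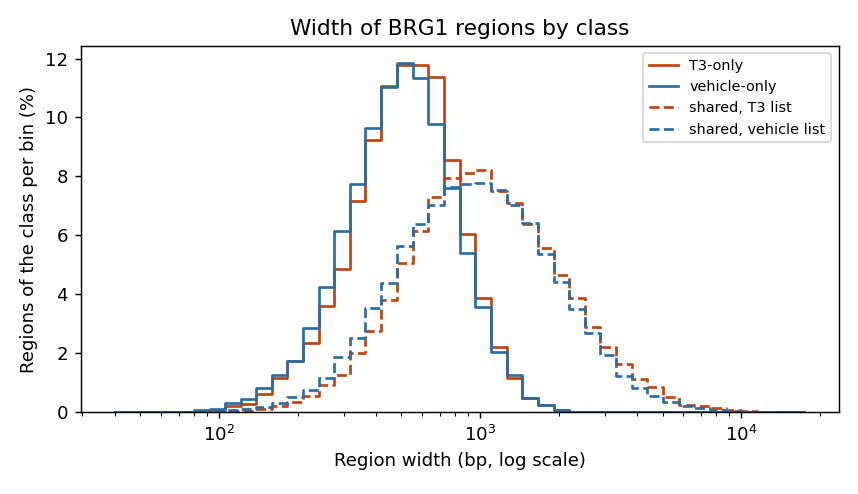
Distribution of region widths (horizontal axis, bp, log scale) as the percent of each class in each bin (vertical axis). Solid lines are T3-only and vehicle-only regions, with medians of 526 and 501 bp, and dashed lines the shared regions of the T3 and vehicle lists, with medians of 1010 and 960 bp.

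Shared regions that paired off singly had nearly the same width in both conditions. Among 24775 regions that paired with exactly 1 region of the other list and were its only partner, the T3 region was the wider in 51.7%, with medians of 958 bp with T3 and 962 bp with vehicle. The libraries did not separate by condition in this respect, with median widths of 827 and 875 bp in the T3 libraries and 868 and 857 bp in the vehicle libraries. Other shared regions split or fused: 8237 T3 regions overlapped 2 or more vehicle regions, up to 9, and 6498 vehicle regions overlapped 2 or more T3 regions, up to 6.

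Some regions lay close to the edge of the rule that defines the classes. Just inside it, 1036 overlapping pairs shared 50 bp or less, and the smallest overlap was 1 bp. Just outside it, 413 T3-only and 531 vehicle-only regions lay within 50 bp of a region of the other list. The median gap to the nearest region of the other list was 1139 bp for T3-only regions (quartiles 332 and 6739) and 2279.5 bp for vehicle-only regions (477 and 13930). Within 500 bp lay 32.8% of T3-only and 25.9% of vehicle-only regions, and farther than 50 kb lay 5.13% of T3-only and 9.06% of vehicle-only regions. Most regions of both classes had a neighbour in the other list, with 71.5% of T3-only and 60.0% of vehicle-only regions within 5 kb of one. A denser list lies closer to any point, and the vehicle list, to which T3-only regions were measured, was the longer.

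T3-only regions lay less often at the ends of genes than vehicle-only regions, and both less often than shared regions. An annotated end, either end, of a protein-coding or long non-coding gene lay within 1 kb of the midpoint of 10.97% of T3-only regions (10.4 to 11.5) and of 14.3% of vehicle-only regions (13.8 to 14.8). Of shared regions 29.3% in the T3 list and 27.9% in the vehicle list were at gene ends. Elsewhere inside genes lay 62.9% of T3-only and 59.2% of vehicle-only regions, and between genes 26.1% and 26.5%. The gene table gives no exons, so exonic and intronic regions were not separated. With annotated start sites in place of gene ends, and without chromosome 8, for which no start sites were used here, the shares within 1 kb were 6.72% for T3-only and 9.93% for vehicle-only regions, against 25.7% and 24.2% for the shared regions of the T3 and vehicle lists. The difference of -3.31 percentage points at gene ends became 0.295 when a shared region had to overlap its partner reciprocally by 50%, with an interval from -0.295 to 0.885.

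The gene-end share also changed differently along the signal rank. Among T3-only regions it lay between 9.50% and 13.8% in bins 1 to 9 of the list, and was 9.09% of the 11 regions in bin 10. Among vehicle-only regions it was 11.9% in bin 1, 21.1% in bin 7 (868 regions), 27.5% in bin 8 (429 regions) and 30.6% in bin 9 (124 regions), with 18.8% of the 16 regions in bin 10. In bins 8 and 9 of the T3 list, 10.7% of 197 and 13.2% of 68 T3-only regions were at gene ends. Shared regions of the same bins stood higher in both lists, at 35.1% and 36.5% in bins 8 and 9 of the T3 list and 35.0% and 38.9% in those of the vehicle list.

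**Figure D3:**
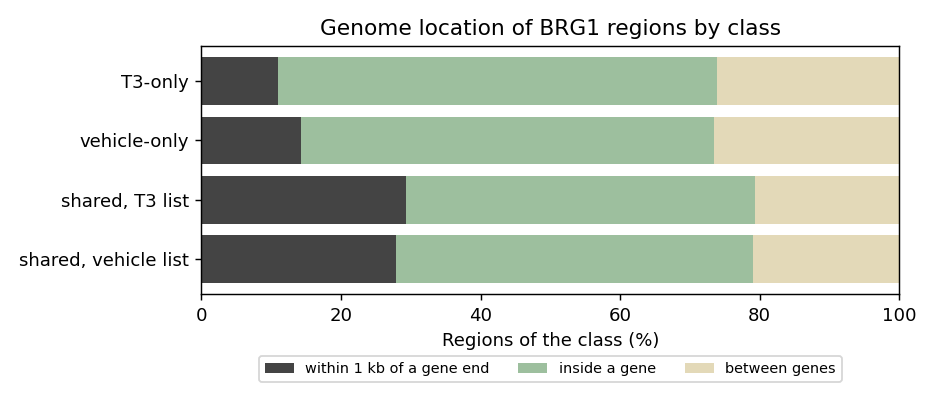
Genome location of BRG1 regions: each bar is a class, and its parts are the percent of regions (horizontal axis) with a midpoint within 1 kb of a gene end, elsewhere inside a gene, or between genes. The gene-end part is 10.97% for T3-only, 14.3% for vehicle-only, and 29.3% and 27.9% for the shared regions of the T3 and vehicle lists.

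Across the start windows of RefSeq, those touched by T3-only regions were poorer in CpG than those touched by vehicle-only regions. Of 34789 windows of 27057 genes, 455 overlapped T3-only regions alone, 1373 vehicle-only regions alone and 14968 shared regions alone, 70 overlapped regions of several classes, and 17923 overlapped none. Median GC content was 61.3% in T3-only windows (quartiles 52.2 and 69.7) and 64.7% in vehicle-only windows (57.7 and 72.3), beside 66.3% in shared windows and 49.0% in windows without a region. The median number of CpG dinucleotides was 18 in T3-only windows and 23 in vehicle-only windows, beside 27 in shared windows and 4 in windows without a region. The quartile ranges of T3-only and vehicle-only windows overlapped. Windows of protein-coding genes made up 71.0% of T3-only and 77.5% of vehicle-only windows, beside 80.1% of shared windows and 47.7% of windows without a region. The part of this difference in the CpG numbers was not tested. The windows are those of the sequences printed above, and several windows can belong to 1 gene.

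All 5 short motifs had a higher share in T3-only than in vehicle-only windows, but within overlapping intervals. The TATA box letters TATAAA were in 9.01% of T3-only windows (6.54 to 12.03) and 6.63% of vehicle-only windows (5.37 to 8.08), beside 4.89% of shared windows (4.55 to 5.25), whose interval lay below both, and 11.6% of all windows. TGANTCA, the AP-1 motif, was in 7.47% of T3-only and 5.24% of vehicle-only windows, beside 5.53% of shared and 7.69% of all. AGGTCA, the half-site of nuclear receptors, was in 12.97% of T3-only and 11.1% of vehicle-only windows, beside 9.42% of shared and 13.8% of all. CCGGAAGT, the ETS motif, was in 7.25% of T3-only and 5.83% of vehicle-only windows, beside 7.37% of shared, 1.19% of windows without a region and 4.12% of all. GGAATG, the TEAD motif, was in 14.3% of T3-only and 12.96% of vehicle-only windows, beside 10.9% of shared and 14.1% of all. For all 5 motifs the intervals of the T3-only and vehicle-only windows overlapped. Both strands were searched, TGANTCA reads the same on both, and no motif holds another.

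The balance of T3-only and vehicle-only regions varied among chromosomes. Of the 31825 T3-only and vehicle-only regions combined, 40.9% were T3-only. The share was highest on chromosome 21, at 51.1% (46.6 to 55.6), followed by chromosome 20 at 47.3%, chromosome 5 at 47.1%, chromosome 7 at 46.5% and chromosome 10 at 45.6%, and the intervals of these 5 overlapped. It was lowest on chromosome 19, at 29.7% (27.2 to 32.3), and on X, at 30.4% (26.4 to 34.6), whose intervals overlapped each other and not those of the 5 highest. On chromosome 19, 383 of 2062 T3 regions were T3-only and 906 of 2593 vehicle regions vehicle-only, whereas on chromosome 21 the numbers were 254 of 909 and 243 of 955. With lists of equal length the share over all chromosomes was 52.0%, with 62.1% on chromosome 21, 60.7% on 20 and 59.6% on 5, against 39.1% on chromosome 19 and 41.6% on X. At an IDR of at most 0.01 chromosome 21 stood at 43.3% and chromosome 5 was the highest of the 7 recomputed, at 47.6%, beside 37.9% over all chromosomes.

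The lists of ARID1A, which come from other libraries, showed some of the same chromosomes apart. Of ARID1A regions in 1 condition 43.4% were T3-only, with 62.5% on chromosome 20, 57.3% on 5, 56.9% on 21, 56.4% on 10 and 56.2% on 7, against 29.9% on chromosome 19, 27.0% on 18 and 25.9% on X. The 5 chromosomes with the highest BRG1 share were also the 5 with the highest ARID1A share. The copy number of these chromosomes in the cells was not measured, and its part in these shares was not tested.

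**Figure D4:**
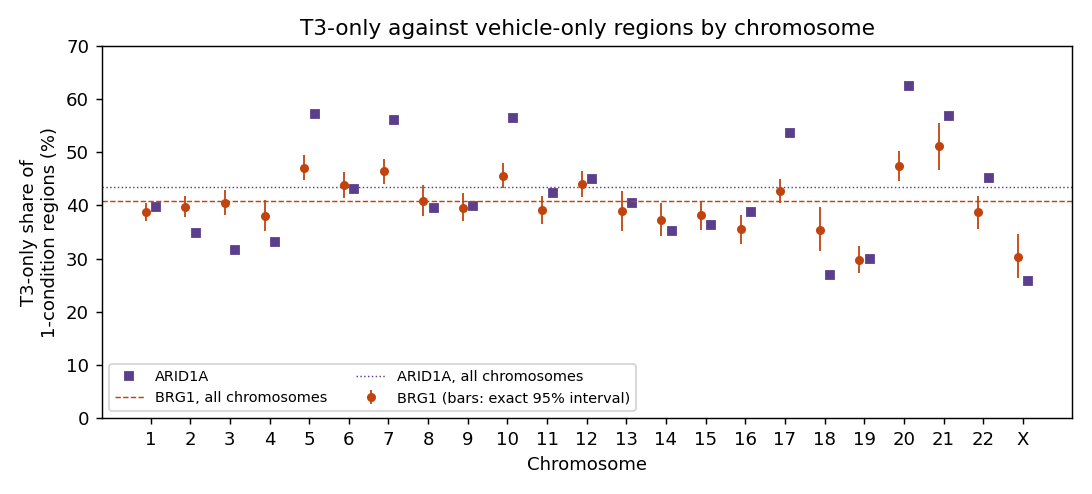
T3-only share of the T3-only and vehicle-only regions together (vertical axis, %) on each chromosome (horizontal axis), for BRG1 (circles, with exact 95% intervals) and ARID1A (squares); horizontal lines mark the shares over all chromosomes, 40.9% for BRG1 and 43.4% for ARID1A. BRG1 was highest on chromosome 21, at 51.1%, and lowest on chromosome 19, at 29.7%.

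In gene-dense windows the T3-only share was lower than in gene-poor ones for BRG1 and higher for ARID1A. In 1-Mb windows with 0 to 5 protein-coding genes 42.9% of BRG1 regions in 1 condition were T3-only, in windows with 6 to 15 genes 41.5%, in windows with 16 to 30 genes 37.7% and in windows with over 30 genes 38.0%. For ARID1A the shares in the same order were 38.5%, 43.3%, 46.4% and 48.1%.

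Of 1171 windows of 1 Mb with at least 10 regions in 1 condition, 258 held more T3-only regions, 834 more vehicle-only regions and 79 equal numbers. The largest excess of T3-only regions lay at chr5:149000001-150000000, with 44 T3-only and 17 vehicle-only regions. This window holds ABLIM3, AFAP1L1, CSNK1A1 (a casein kinase of the WNT pathway), PPARGC1B (a coactivator of nuclear receptors) and SLC26A2 (a sulfate transporter), and ARID1A had 41 T3-only and 23 vehicle-only regions there. Next came chr10:13000001-14000000, the window of FRMD4A, OPTN and MCM10, with 23 T3-only and 9 vehicle-only regions, and chr20:10000001-11000000, the window of JAG1 (a NOTCH ligand) and SNAP25, with 22 and 8. At chr17:76000001-77000000, which holds MXRA7, SPHK1 and SRSF2, 29 T3-only and 16 vehicle-only regions were found, and at chr1:67000001-68000000, which holds GNG12, GADD45A and SERBP1, 19 and 7. ARID1A had 20 T3-only and 8 vehicle-only regions in the chromosome 10 window, and 12 and 11 in that of chromosome 20. In the chromosome 17 window it had 43 and 24. In the chromosome 1 window ARID1A went the other way, with 4 T3-only and 16 vehicle-only regions.

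The windows with the largest excess of vehicle-only regions were gene-dense, and 4 of the 5 lay at the start of a chromosome sequence or next to it. The largest was chr19:17000001-18000000, the window of MYO9B, NR2F6, BST2, JAK3 and the iodide transporter gene SLC5A5, with 10 T3-only and 47 vehicle-only regions. At chr11:1-1000000, which holds HRAS, IRF7 and the IFITM genes, there were 8 T3-only and 38 vehicle-only regions, while ARID1A had 57 and 36. The first 2 windows of chromosome 19, which hold STK11, GPX4, TCF3, BSG and PTBP1, had 11 and 39 at chr19:1000001-2000000 and 10 and 38 at chr19:1-1000000. At chr16:1-1000000, the window of the alpha-globin genes and AXIN1, 15 T3-only and 42 vehicle-only regions were found, and ARID1A had 60 and 63. On chromosome 19 ARID1A had 37 T3-only and 60 vehicle-only regions at chr19:17000001-18000000, 30 and 114 at chr19:1000001-2000000, and 23 and 79 at chr19:1-1000000. Only in the chromosome 11 window did ARID1A go the other way.

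Vehicle-only regions also came in longer runs than T3-only regions. When all regions were put in order along the chromosomes, 357 runs of 3 or more T3-only regions with no other BRG1 region between them held 8.86% of T3-only regions, and 1072 such runs of vehicle-only regions held 19.8% of those. The longest T3-only runs had 6 regions, at chr21:33041368-33200642 over OLIG1 and at chr6:13409216-13481968 over GFOD1. A run of 5 stood at chr1:67772661-67790907 over GNG12, a G protein gamma subunit. The longest vehicle-only runs had 9 regions and differed in density. That at chr1:3995586-5983977, ending over NPHP4, was spread over 1988 kb. That at chr1:161442383-161464969, 40.5 kb from FCGR2A, took up 22.6 kb. Vehicle-only regions were also the more frequent, and the part of their number in the longer runs was not tested.

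At the majority of T3-only BRG1 regions no other protein of the study was listed with T3 alone. At 7.06% of T3-only BRG1 regions ARID1A was listed with T3 alone, at 6.76% with vehicle alone, at 3.34% in both and at 82.8% in neither. At vehicle-only BRG1 regions ARID1A was listed with T3 alone at 8.89%, with vehicle alone at 9.96%, in both at 5.60% and in neither at 75.5%. At shared BRG1 regions of the T3 list ARID1A was listed with T3 alone at 14.4% and absent from both lists at 35.9%. These shared regions were also wider, with a median of 1010 bp against 526 bp for T3-only regions. The PBRM1 list was longer with T3 (38132 regions, against 9115 with vehicle). PBRM1 was listed with T3 alone at 10.7% of T3-only and 15.1% of vehicle-only BRG1 regions, beside 32.2% of the shared BRG1 regions of the T3 list. With vehicle alone PBRM1 was listed at 1.84% of T3-only and 1.92% of vehicle-only BRG1 regions. TRβ, with 7186 regions with T3 and 1405 with vehicle, was listed with T3 alone at 0.976% of T3-only and 1.44% of vehicle-only BRG1 regions, beside 9.69% of the shared BRG1 regions of the T3 list. Neither PBRM1 nor TRβ was thus listed with T3 more often where BRG1 was listed with T3 only than where it was listed with vehicle only.

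ARID1A and PBRM1 were also read by location. ARID1A was in neither list at 71.3% of gene-end T3-only regions and 59.4% of gene-end vehicle-only regions, against 85.3% and 78.7% elsewhere inside genes. At gene-end T3-only regions PBRM1 was listed with T3 alone at 22.7%, against 31.8% of gene-end vehicle-only regions. Elsewhere inside genes the PBRM1 shares were 9.58% of T3-only and 12.9% of vehicle-only regions.

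The strongest T3-only region, by the value in its weaker library, was at chr6:12289217-12291270, with values of 14.3 and 14.2 in the first and second library column. It is 2054 bp wide, lies inside the span of EDN1, and holds both start windows of that gene described above. PBRM1 was listed there with T3 alone and ARID1A and TRβ in neither condition. The next lay at chr17:76839208-76841395 (14.5 and 14.1), between genes and 27.0 kb from MGAT5B, a glycosyltransferase gene, and only 0.124 kb from the nearest vehicle region. Another lay inside LAMB1 (the laminin beta-1 chain of basement membranes) at chr7:107997306-108000053, with values of 16.7 and 12.6, 0.328 kb from a vehicle region. The others of the 6 highest were chr2:127144850-127146813, 37.0 kb from CYP27C1 (a cytochrome P450 that acts on retinoids), with 12.003 and 13.3, chr20:31726376-31728182, 2.41 kb from BCL2L1 (the inhibitor of apoptosis BCL-XL), with 11.7 and 16.7, and chr1:209364543-209365786, with 10.9 and 11.98 and no protein-coding gene within 100 kb. All 6 lay within 3 kb of a region of the vehicle list.

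The strongest vehicle-only regions included isolated ones. The highest lay inside SPIDR, a scaffold gene of DNA repair, at chr8:47352484-47354068, with 13.4 and 13.9 in its libraries and 74.5 kb from the nearest T3 region. One inside IHH, a hedgehog ligand, at chr2:219057354-219059293 had 16.4 and 12.3 and lay 65.9 kb from a T3 region, and ARID1A was listed there with vehicle alone. A region inside GLIS3, a transcription factor needed for thyroid hormone synthesis, at chr9:4235840-4237406 had 20.3 and 13.3, but the nearest T3 region was only 0.077 kb away. The region inside AIF1L at chr9:131109616-131111595 had 16.05 and 12.6. Those of HRH1 at chr3:11154102-11155900 (12.4 and 12.4) and ACHE at chr7:100894979-100897587 (12.4 and 13.4) held the start windows shown above, and ARID1A and PBRM1 were listed in both conditions at both.

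Genes were set apart where several regions moved one way. Regions were assigned to a protein-coding gene when their midpoint lay in its span or within 5 kb of it, so overlapping genes share regions and regions of 1 gene are not replicates. Of 19821 genes, 15234 held a BRG1 region. Of these 5942 held a T3-only region and 8129 a vehicle-only region, 3722 held both, and 4885 held neither. A gene was called gaining if it held at least 3 T3-only regions and at most 1 vehicle-only region for every 3 of them, and losing in the reverse case. By this rule 307 genes were gaining, 2.02% of those with a region, and 911 were losing, 5.98%. With lists of equal length 567 were gaining and 457 losing, so that the order of these counts turned with list length. This alternative shortens the vehicle list alone, so vehicle-only regions can be lost and T3-only regions can be added, and all 307 gaining genes remained. At an IDR of at most 0.01, 168 genes were gaining and 561 losing, of which 59 and 285 were among the original calls. Exactly 3 T3-only regions were held by 187 of the gaining genes, and exactly 3 vehicle-only regions by 528 of the losing genes, while 373 genes just outside the rule held 2 T3-only and no vehicle-only regions and 933 held the reverse.

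Few of these genes were gained or vacated as a whole. Only 9 gaining genes and 73 losing genes held no shared region, while 113 gaining genes held no vehicle-only region and 465 losing genes no T3-only region. They were long: the median length was 67.2 kb for gaining and 60.5 kb for losing genes, against 30.2 kb for all genes with a region. The rule itself favours long genes, because it asks for at least 3 regions of a class and a longer gene has more room for them. ARID1A regions did not follow closely. In gaining genes ARID1A had more T3-only than vehicle-only regions in 38.4% and fewer in 35.5%, and in losing genes more in 29.9% and fewer in 50.3%, beside 26.9% and 34.9% over all genes with a BRG1 region.

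Among gaining genes the largest net number stood at TRIO, which encodes a guanine nucleotide exchange factor, at chr5:14143342-14510204. It held 21 T3-only and 4 vehicle-only regions, next to 47 shared regions in the T3 list and 63 in the vehicle list. Its highest T3-only region, chr5:14161068-14162262, had 7.02 and 9.05 in the libraries, and none of the 21 was at a gene end. JARID2, a cofactor of the Polycomb complex PRC2, held 12 T3-only and 3 vehicle-only regions. PPM1H, a protein phosphatase, also held 12 and 3. MXRA7 held 8 and 0 in a gene of 38.4 kb, the highest net number without a vehicle-only region.

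HAPSTR1, a stress-response partner of the ubiquitin ligase HUWE1, held 10 T3-only and 2 vehicle-only regions. EGFR, the receptor of epidermal growth factor, at chr7:55019017-55211628, held 8 and 1, besides 20 shared regions in the T3 list and 19 in the vehicle list. Its highest T3-only region, chr7:55017493-55018155, had 5.25 and 4.62, and 1 of the 8 was at a gene end. KANSL1, a subunit of the NSL histone acetyltransferase complex, held 8 and 1. The values of all these regions were modest: over these 7 genes the weaker library of the highest T3-only region lay between 4.46 and 7.02. At an IDR of at most 0.01 JARID2 held 6 and 1, PPM1H 9 and 2, and MXRA7 3 and 1, which still met the rule. TRIO with 18 and 7, EGFR with 5 and 3, and HAPSTR1 and KANSL1 with 2 and 2 no longer did. With a reciprocal overlap of 50% TRIO held 38 T3-only and 37 vehicle-only regions, JARID2 20 and 13, PPM1H 19 and 13, HAPSTR1 12 and 6, and EGFR 18 and 10, and these 5 no longer met the rule. MXRA7 (11 and 3) and KANSL1 (14 and 3) met it. MXRA7 alone of the 7 met the rule under both alternatives.

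Among losing genes the largest net number stood at GSE1, a protein of histone deacetylase complexes, at chr16:85169512-85676200, with 8 T3-only and 24 vehicle-only regions. Its highest vehicle-only region, chr16:85369756-85371400, had 8.56 and 10.1 in the libraries. TLN2, which links integrins to actin, held 4 T3-only and 16 vehicle-only regions. IGF1R, the receptor of insulin-like growth factor, held 5 and 17, next to 33 shared regions in the T3 list and 30 in the vehicle list. SH3KBP1, an adaptor in receptor endocytosis, held 3 and 14, and TIAM2, an exchange factor for Rac, also lost in net terms with 4 and 14. KATNIP, a ciliary partner of the microtubule-severing katanin, held 0 and 10. ZMYND8, a reader of modified histones, held 1 and 10, and ADGRB1, an adhesion receptor, 0 and 8. At an IDR of at most 0.01 TLN2, with 3 and 5, no longer met the rule, and the other 7 did, with 5 and 20 at GSE1 and 0 and 6 at KATNIP. With lists of equal length GSE1 (8 and 19), IGF1R (8 and 13) and TIAM2 (4 and 9) no longer met it. With a reciprocal overlap of 50% GSE1 (21 and 47), TLN2 (9 and 21), IGF1R (15 and 24), TIAM2 (16 and 25) and ZMYND8 (5 and 14) no longer met it. SH3KBP1, KATNIP and ADGRB1 met the rule in all 3.

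ARID1A had more vehicle-only than T3-only regions at 7 of these 8 losing genes, with 21 T3-only and 48 vehicle-only regions at GSE1, 4 and 9 at TLN2, 7 and 11 at IGF1R, 4 and 6 at SH3KBP1, 6 and 11 at KATNIP, 2 and 13 at TIAM2, and 1 and 7 at ZMYND8. At ADGRB1 it had 12 and 8. These are the losing genes with the largest net numbers. Over all losing genes ARID1A had more vehicle-only regions in 50.3%, beside 34.9% of all genes with a BRG1 region. At the 7 gaining genes the ARID1A numbers were mixed. TRIO had 14 T3-only and 13 vehicle-only ARID1A regions, JARID2 8 and 4, PPM1H 5 and 4, and HAPSTR1 1 and 1. EGFR with 2 and 7, MXRA7 with 2 and 4, and KANSL1 with 1 and 2 had more vehicle-only ones.

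**Figure D5:**
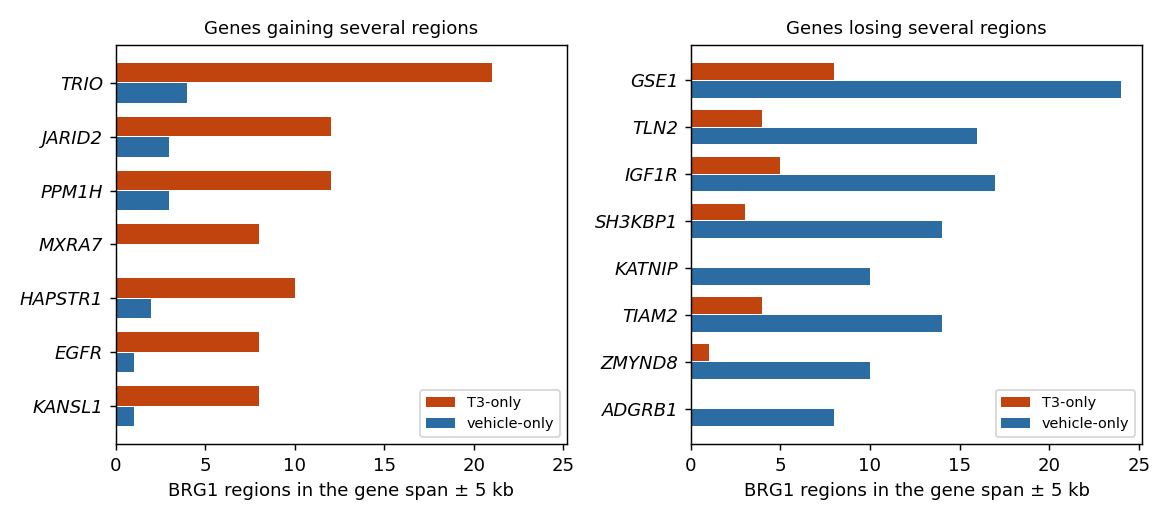
BRG1 regions in the span of a gene and 5 kb on each side (horizontal axis, number of T3-only and vehicle-only regions) for 7 of the gaining genes (left) and 8 of the losing genes (right) with the largest net numbers. TRIO held 21 T3-only and 4 vehicle-only regions, and GSE1 held 8 and 24.

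Among genes of the thyroid and of hormone supply and reception 3 were losing and none was gaining. Of the 5 lineage factors 4 held a region, none was gaining and none losing, beside 2.02% and 5.98% of all genes. HHEX held 2 T3-only and 0 vehicle-only regions, FOXE1 2 and 1, and PAX8 2 and 2 with 10 shared regions in each list, while NKX2-1 held none. GLIS3, which held 1 of the strongest vehicle-only regions, had 9 T3-only and 7 vehicle-only regions. It also had 26 shared regions in the T3 list and 25 in the vehicle list. The presence of BRG1 regions at PAX8 and FOXE1 is occupancy, and does not measure expression. Of 10 genes of hormone synthesis 8 held a region and 1 was losing: TG, the thyroglobulin gene, with 1 T3-only and 8 vehicle-only regions. Of 12 genes for receptors, transport and deiodinases, 8 held a region and 2 were losing: RXRA, the partner of thyroid hormone receptors, with 3 and 11, and CRYM, a cytosolic binder of T3, with 0 and 3. THRB held 7 and 8, and THRA 0 and 2. ARID1A had 5 T3-only and 4 vehicle-only regions at TG, 20 and 14 at RXRA, and 0 and 1 at CRYM.

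Of 13 genes known to respond to T3, 11 held a region, of which 1 was gaining and 1 losing, beside 2.02% and 5.98% of all genes with a region. HIF1A was gaining, with 3 T3-only and 0 vehicle-only regions, and HR, a corepressor of nuclear receptors, was losing, with 0 and 3. KLF9 held neither kind. Of the 12 coregulators of nuclear receptors PPARGC1A was gaining, with 4 and 0, and TBL1X, of the NCoR corepressor complex, was losing, with 1 and 3. Of 13 AP-1 and related factors 12 held a region; ATF3, induced by stress, was gaining with 6 and 0, and JUND was losing with 1 and 3. ATF3 held 5 and 1 at an IDR of at most 0.01, which still met the rule. With a reciprocal overlap of 50% ATF3 held 7 and 3, which no longer met it. Of the 12 TEAD and YAP genes TEAD3 was losing, with 1 and 4, and of the 4 RUNX genes RUNX2, with 0 and 6.

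Among the genes of SWI/SNF subunits more had a net excess of vehicle-only than of T3-only regions, as over all genes. All 23 genes held a region. None was gaining and 3 were losing, beside 2.02% gaining and 5.98% losing among all genes with a region: SMARCA4 itself, with 1 T3-only and 4 vehicle-only regions, PBRM1 with 0 and 4, and DPF3 with 1 and 5. The net number of T3-only minus vehicle-only regions was above 0 in 3, below 0 in 13 and 0 in 7, with a median of -1, whereas over all genes with a region 3115 were above 0 and 5829 below, with a median of 0. The median length of these genes was 53.0 kb, longer than the 30.2 kb over all genes. ARID1A, the gene, held 4 and 4.

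Genes of growth signalling fell on both sides. Of 19 genes of receptor kinases and the RAS-MAPK cascade 18 held a region. EGFR and MET, the receptor of hepatocyte growth factor (3 T3-only and 1 vehicle-only regions), were gaining, and IGF1R, RET (0 and 3) and MAP2K1 (1 and 3) were losing. Of 20 genes of TGF-beta signalling and matrix, all with a region, 1 was gaining and 4 losing, beside 2.02% and 5.98% of all genes with a region. The median length of this list was 73.95 kb and of the receptor kinase list 53.3 kb, against 30.2 kb over all genes. The gaining one was TGFBR1, a TGF-beta receptor, with 3 and 1. SMAD3, its effector, was losing with 2 and 8, COL4A1 with 1 and 7, COL1A1 with 1 and 4, and LAMC1 with 1 and 3. Of 12 junction and keratin genes KRT7 was gaining, with 4 and 1, and CDH2 (1 and 4) and OCLN (0 and 3) were losing.

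In the other lists 2 genes were gaining and 5 losing. Of 15 WNT genes WNT5A (1 T3-only and 4 vehicle-only regions) and LRP5 (0 and 4) were losing. Of 16 genes of glycolysis and hypoxia HIF1A was gaining and ENO1 (0 and 3) was losing, and of 20 ribosomal protein genes RPS3 (0 and 3) was losing. None of 17 cell cycle genes was either. Of 10 blood and endothelial genes 4 held a region and none was gaining or losing. Of 10 neuronal genes 9 held a region, SYT1 was gaining with 3 and 1, and GRIN1 was losing with 1 and 3. Over all genes with a region 2.02% were gaining and 5.98% losing. Of the 18 lists the lineage factors, the cell cycle genes and the blood and endothelial genes had no call, and no list had more than 4 genes called in 1 direction.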

How the data were processed

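CUT&RUN libraries of Nthy-ORI cells were processed by the authors with CASAVA 1.7, Trim Galore, Bowtie2 and MACS2 on hg38, per the submitters' processing notes; no parameters are stated there. Each deposited list has the layout of the IDR method, with an interval and a signal value for each of 2 libraries, a summed signal value, and the −log10 of the irreproducible discovery rate as deposited, which reached a rate of 0.05. The signal value is the authors', its scaling is not stated, and it was used within a list only. Which column is which numbered replicate is not stated. The IgG library was not analysed here.

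Overlaps, gaps, gene counts and exact 95% binomial intervals were computed with Python 3.11.15, numpy 2.4.6, pandas 2.3.3, scipy 1.17.1 and matplotlib 3.10.9. Gene spans (RefSeq, GRCh38.p14) had neither strand nor exons, so that gene ends replaced start sites. Start windows with strand came from a RefSeq sequence table that is not complete and was used without chromosome 8. No test of the conditions was run: a region absent from a list has no value for the libraries of that list, and signal values were not compared between lists. The counting of region classes and of regions per gene was checked on simulated data, with 0 wrong calls in 55931 regions and 1380 genes. Each simulated T3 region was placed beside 1 vehicle region by the same 1 bp rule, and genes had no flank. The check therefore covers the counting alone, not whether the classes reflect BRG1 occupancy.

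The members, the 18 gene lists (239 genes, all matched) and the rules were chosen with earlier results of these data known. Named were the 8 gaining and 8 losing genes with the largest net number, 6 regions of each class with the highest value in the weaker library, 5 windows in each direction, and gaining or losing list members; a gene that this rule names is not reported here. Levels of other list members, runs, and windows with sequence were added for description. Alternatives were reciprocal 50% overlap, a 500-bp gap, IDR of at most 0.01, equal list lengths, intervals of 1 library, other gene flanks, minimum numbers and distances.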

Additional observations from a re-analysis of the deposited data

How the results depend on the processing

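The counts depended on list length, on overlap and on the IDR limit, and the cause was not tested. The shares of T3-only and vehicle-only regions were 49.3% and 55.9% with a reciprocal overlap of 50%, 15.6% and 21.7% with gaps of up to 500 bp counted as shared, 19.1% and 26.8% at an IDR of at most 0.01, and 26.3% and 24.2% with lists of equal length. Leaving out the interval of 1 library, they lay from 24.6% to 24.8% and from 30.5% to 30.9%, with 318 gaining and 933 to 952 losing genes and a gene-end difference (T3-only minus vehicle-only) from -3.16 to -2.99 points. That difference was 0.295 with a reciprocal overlap of 50%, against -3.31 in the report, -4.23 with the gap, -5.39 at an IDR of at most 0.01, -2.33 within 3 kb, and -3.21 with start sites. Gaining and losing genes numbered 168 and 561 at an IDR of at most 0.01, 567 and 457 with lists of equal length, 547 and 2087 with 25 kb on each side, and 58 and 206 when at least 5 regions were required. They numbered 417 and 1089 with a reciprocal overlap of 50%, 230 and 693 with the gap, 230 and 631 in the gene span alone, and 262 and 738 with each region counted in 1 gene. The start sites, the single chromosomes and the count of each region in 1 gene were chosen after seeing the data. In each of the overlap, gap, IDR, length and single-library alternatives chromosomes 5, 7, 10, 20 and 21 stayed above the share over all chromosomes and chromosomes 19 and X below it. At an IDR of at most 0.01, 5 gaining genes turned to losing and 1 losing gene to gaining. No paired analysis was possible because the library columns carry no replicate number and the results come from no test. Regions below the listing threshold and unknown read depth limit what absence from a list shows.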
